A study of Mus musculus with 4 samples.

Results

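Genes that encode structural parts of the sperm tail were examined in testes of hypogonadal (hpg) mice, which carry a mutation that removes gonadotropin-releasing hormone and so make little testosterone of their own. The members were 7 named genes, Odf1, Odf2, Smcp, Akap3, Akap4, Tekt1 and Tekt2. Every probe set whose single gene symbol was one of these was taken, which gave 8 of 12422 probe sets and 6 of the 7 genes. Odf2 had 3 probe sets, Odf1, Smcp, Akap4, Tekt1 and Tekt2 had 1 each, and Akap3 was matched by none. Total RNA of the testis was hybridised to 4 one-colour oligonucleotide arrays. All mice had been pretreated with testosterone propionate, an injected testosterone ester, for 2 weeks where a duration is stated, and then deprived of it. T+O has 1 array and is described as withdrawn. T+T has 3 arrays. The label of replicate 1 adds a second course of testosterone propionate, lasting 4 hours. For T+T replicates 2 and 3 the description stops at the withdrawal, so that only their title places them in T+T. Age, strain and the number of animals per array are not given in the sources used here, nor is it said that the T+T arrays came from separate animals, so that p-values cover no more than the spread among these arrays, which may be technical.

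The flagellum of a sperm is built late in spermatogenesis, when round spermatids elongate. Its core, the axoneme, is a ring of microtubule doublets stabilised by tektins. Outer dense fibres run along the doublets, a mitochondrial sheath surrounds them in the midpiece, and a fibrous sheath surrounds them in the principal piece, where A-kinase anchoring proteins hold protein kinase A and glycolytic enzymes. Most of these genes are transcribed in haploid germ cells, and many of the messages are stored before they are translated. Odf2 and the tektins are also used by centrosomes or by motile cilia elsewhere in the body.

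Windows around the transcription start, reaching 250 bases before it and 50 after, were found for Odf2, Smcp, Akap3, Akap4, Tekt1 and Tekt2 in the RefSeq table of assembly GRCm38.p6. Both strands were searched for the letters TGANGTCA, which cover the cyclic AMP response element and its near relatives, and for GTTGC followed, after 3 or 4 bases, by GNNAC, which has the layout of the X-box of motile cilia genes. Both motifs were chosen after these windows had been read. The first was in 8.83% and the second in 3.12% of 32851 windows of this length. The stretches below are shown because they hold these matches, which are in capitals, and each is printed 5′ to 3′ along its gene.
Akap4: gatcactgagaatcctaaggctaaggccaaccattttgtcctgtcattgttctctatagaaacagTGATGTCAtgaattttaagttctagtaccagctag
Akap3: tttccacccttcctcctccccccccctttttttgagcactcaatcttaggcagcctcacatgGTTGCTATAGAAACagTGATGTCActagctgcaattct
Tekt1: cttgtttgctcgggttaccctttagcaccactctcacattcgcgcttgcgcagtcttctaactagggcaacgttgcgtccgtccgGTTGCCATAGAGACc
Tekt2: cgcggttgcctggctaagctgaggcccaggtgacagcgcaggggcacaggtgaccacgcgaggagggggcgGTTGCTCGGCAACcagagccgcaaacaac
Smcp: ggagagtattaTGATGTCAtaaaagagctg

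The first 4 stretches are the 100 bases before a start, at chrX:7067415-7067514 on the plus strand for Akap4, chr6:126852998-126853097 on the plus strand for Akap3, chr11:72361883-72361982 on the minus strand for Tekt1 and chr4:126325689-126325788 on the minus strand for Tekt2. The Smcp stretch, at chr3:92589031-92589060 on the minus strand, lies past the start, and its match covers bases 25 to 32 of the transcript. The TGATGTCA of Akap4 lies 35 to 28 bases and that of Akap3 22 to 15 bases before the start, and Akap3 has a second match that spans its start. Tekt1, Tekt2 and Akap3 hold the other motif, 15 to 2, 29 to 17 and 38 to 25 bases before the start. From another annotated start of Tekt2 the same match lies 71 to 59 bases before. Both anchoring protein genes share a run of 20 bases, CTATAGAAACAGTGATGTCA, which no other gene among the 32851 windows holds on either strand. None of the 4 Odf2 windows held either motif. Every member match to TGANGTCA read TGATGTCA. No member window held TGACGTCA, the cyclic AMP response element itself, which was in 1.79% of all windows. The motif results are matches of letters and not measured binding.

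The arrays differed in overall level as deposited, with medians between 25.4 and 48.3, and were multiplied by factors of 0.779 to 1.33 to reach a common trimmed mean. The control gene Gapdh had a ratio of 3′ to 5′ signal of 1.20 for T+O and 0.844 ± 0.039 (SD, n = 3) for T+T. That of Pcx was 3.76 against 1.90 ± 0.12, and that of Actb was 1.53 against 1.66, 1.40 and 1.17, so that T+O was above every T+T array for Gapdh and Pcx and inside their range for Actb. The part of RNA quality in the differences was not tested. Germ cells with the spermatid programme were represented on every array: the summed scaled signal of 18 other spermatid genes was 27490 on T+O and 31519, 33693 and 27616 on T+T replicates 1, 2 and 3. Of 4 measured epididymis genes 3 lay below the filter on dim probe sets, and the sum over all 4 was between 57.6 and 91.8. In a whole testis, fewer cells of a type and less RNA per cell cannot be told apart.

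All 6 flagellum genes had a bright probe set, Odf2 also had 2 dimmer ones, and none of the 7 member probe sets that were tested passed a test of T+T against T+O. The log2 differences of T+T minus T+O ran from -0.29 for a dim Odf2 probe set to 0.24 for Tekt2. The median over these 7 was 0.070, against 0.026 over all 7453 probe sets tested. None of the 7 passed the adjusted threshold of 0.05 in limma and none had an unadjusted p under 0.05, where 0.0268% and 7.8% of all tested probe sets did. None was at least 1.5-fold to one side of T+O on all 3 T+T arrays, where 4.07% of all tested probe sets were. With 1 array against 3, intervals of the difference were wide, and each is given below so that the size of change still allowed can be read. Differences are on the scale of log2(scaled signal + 9.78), which understates changes of dim probe sets.

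**Figure D1:**
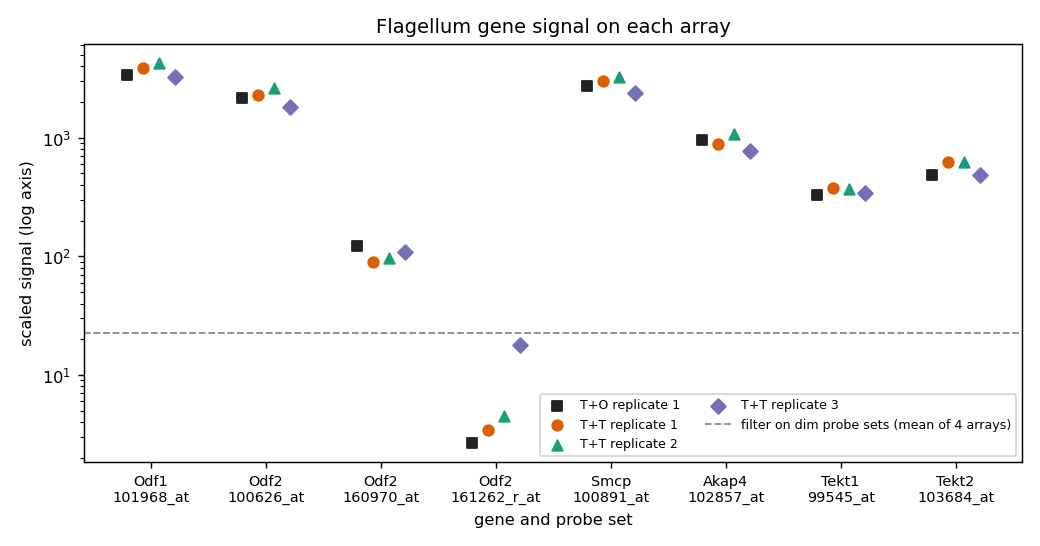
Scaled signal (log axis) of the 8 member probe sets on each array, with 1 point per array and the filter of 22.7 on the mean of the 4 arrays as a dashed line. Odf1, Smcp and the brightest Odf2 probe set lie at 1804 or more on every array, and the Odf2 probe set 161262_r_at is the only one whose mean falls under the filter.

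The outer dense fibre gene Odf1 had the brightest member probe set. It encodes a cysteine-rich protein that is a main component of the fibres. Its probe set 101968_at had a scaled signal of 3359 on T+O and 3850, 4248 and 3219 on T+T replicates 1, 2 and 3. T+O lay inside the T+T range, above replicate 3 and below the other T+T arrays. T+T minus T+O was 0.16 on the log2 scale (SE 0.20), with a 95% interval from -0.31 to 0.62 (limma, adjusted p = 0.92). Among the 12422 probe sets of an array it ranked 38 on T+O and 38, 31 and 43 on T+T. A rank describes how bright a probe set is on an array, and since probes respond differently it does not order transcript amounts between genes.

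Odf2 encodes a scaffold protein of the fibres, with a related form at the centrosome. Its brightest probe set, 100626_at, had 2140 on T+O and 2281, 2620 and 1804 on T+T. Here too T+O fell between T+T replicates 1 and 3, and the spread within T+T was the widest among the tested members, with an SD of 0.27 on the log2 scale. The log2 difference was 0.046 with a 95% interval from -0.48 to 0.57 (limma, adjusted p = 0.98). This probe set ranked 81 on T+O and between 64 and 109 on T+T.

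A second Odf2 probe set, 160970_at, went the other way. It had 122 on T+O and 90.2, 96.6 and 109 on T+T, with ranks between 2848 and 3492. All 3 T+T arrays lay below T+O, as did 23.7% of all tested probe sets. T+T minus T+O was -0.29 on the log2 scale (SE 0.22), with a 95% interval from -0.80 to 0.21 (limma, adjusted p = 0.81). The third, 161262_r_at, had 2.65 on T+O and 3.45, 4.51 and 17.9 on T+T, with ranks between 8159 and 11432, and was not tested because its mean lay under the filter of 22.7. The probe sets of Odf2 thus disagreed in sign, and no direction is given for the gene.

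Smcp encodes the cysteine-rich protein of the mitochondrial sheath of the midpiece, and its message is a textbook case of storage in round spermatids. It had 2713 on T+O and 2984, 3245 and 2386 on T+T. The order of the arrays was that of Odf1 and of the bright Odf2 probe set, with T+T replicate 2 highest and T+T replicate 3 lowest. Its log2 difference was 0.070 with a 95% interval from -0.42 to 0.56 (limma, adjusted p = 0.97). It ranked 54 on T+O and 55, 51 and 60 on T+T.

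Akap4 encodes the most abundant protein of the fibrous sheath, where it anchors protein kinase A. Its probe set 102857_at had 960 on T+O and 884, 1076 and 775 on T+T. T+O again lay inside the T+T range, this time above replicates 1 and 3. T+T minus T+O was -0.087 on the log2 scale (SE 0.21), with a 95% interval from -0.58 to 0.41 (limma, adjusted p = 0.97). The rank was 314 on T+O and 369, 278 and 392 on T+T. For Akap3, the second anchoring protein of the sheath, no value was analysed here.

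The tektins are filament proteins inside the axonemal doublets. Tekt1 had 327 on T+O and 378, 368 and 338 on T+T, which put all 3 T+T arrays above T+O, as for 29.5% of all tested probe sets. Its log2 difference was 0.14 with a 95% interval from -0.27 to 0.55 (limma, adjusted p = 0.92), and its SD over T+T of 0.082 on the log2 scale was the smallest of the 7. Tekt2 had 480.3 on T+O and 619, 624 and 479.5 on T+T. T+T replicates 1 and 2 were close together and replicate 3 stood at the level of T+O. Tekt2 had the highest difference of the members, 0.24 on the log2 scale (SE 0.21), with a 95% interval from -0.24 to 0.72 (limma, adjusted p = 0.85). The ranks were 1151 on T+O and 1008, 1016 and 1087 on T+T for Tekt1, and 744 against 565, 552 and 721 for Tekt2.

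**Figure D2:**
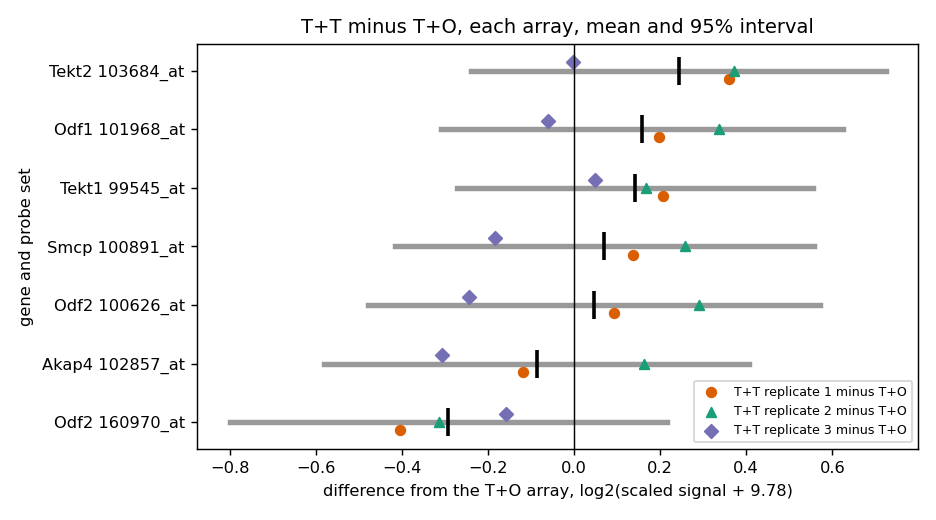
Difference of each T+T array from the single T+O array for the 7 tested member probe sets, on the log2(scaled signal + 9.78) scale, with the mean as a black tick and its 95% interval from limma as a grey bar. Every interval spans 0, and T+T replicate 3 lies below T+T replicates 1 and 2 for each probe set except 160970_at.

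In 6 of the 7 tested member probe sets the range over the T+T arrays was larger than the difference between T+T and T+O, the exception being 160970_at. The same held for 71.9% of all tested probe sets, so that nothing is read from this count. For Odf1, Odf2 (100626_at), Smcp, Akap4 and Tekt2 the signal was highest on T+T replicate 2 and lowest on T+T replicate 3. This order, chosen after the values were seen, was seen in 5 of the 7 tested member probe sets and in 7.04% of all tested probe sets. Among the 1051 probe sets at least as bright as that of Tekt1 it was seen in 13.8%. With median scaling the same 5 members had it, against 12.1% of tested and 24.0% of bright probe sets. After quantile normalization 4 of the 7 members had it, Tekt2 no longer among them, against 7.89% of tested and 7.23% of bright probe sets. On the deposited values without scaling none of the 7 had it, since the deposited signals of T+T replicate 3 are the highest overall. The median SD over T+T of the 1051 bright probe sets was 0.15 on the log2 scale. Above it lay Odf1 with 0.20, Tekt2 with 0.21, Smcp with 0.23, Akap4 with 0.24 and the bright Odf2 probe set with 0.27. Below it lay 160970_at with 0.12 and Tekt1 with 0.082. Between 19.7% (for Tekt1) and 85.4% (for the bright Odf2 probe set) of the bright probe sets had a smaller SD than a member.

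Array by array, 5 of the 7 members lay above T+O on T+T replicate 1, 6 on replicate 2 and 1 on replicate 3, where 54.1%, 51.9% and 54.2% of all tested probe sets did. These counts were 2, 6 and 2 after quantile normalization, 5, 6 and 0 with median scaling and 1, 0 and 5 without scaling. The matching shares of all tested probe sets are not given for these scalings, so that nothing is read from these counts. With the common trimmed mean, median differences of the members from T+O were 0.14, 0.26 and -0.16 on the log2 scale. The 1051 bright probe sets had medians of 0.13, 0.10 and -0.045. All 3 comparisons share the T+O array. On T+T replicate 1 the median of the members was near that of the bright probe sets, and on replicates 2 and 3 it was farther out on either side.

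For the bright Odf2 probe set and Smcp the side of T+O depended on how the arrays were scaled. After quantile normalization the difference of Odf1 was 0.022 in place of 0.16, that of Odf2 (100626_at) turned to -0.052 and that of Smcp to -0.030. Without any scaling it was -0.054 for Odf1, -0.17 for Odf2, -0.14 for Smcp and -0.065 for Tekt1, but the median over all tested probe sets was then -0.16. Against that shift Odf1, Smcp and Tekt1 lay above the median and the bright Odf2 probe set just below it. Tekt2 stayed above 0 and Akap4 and the Odf2 probe set 160970_at below 0 under the common trimmed mean, median scaling, quantile normalization and no scaling.

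**Figure D3:**
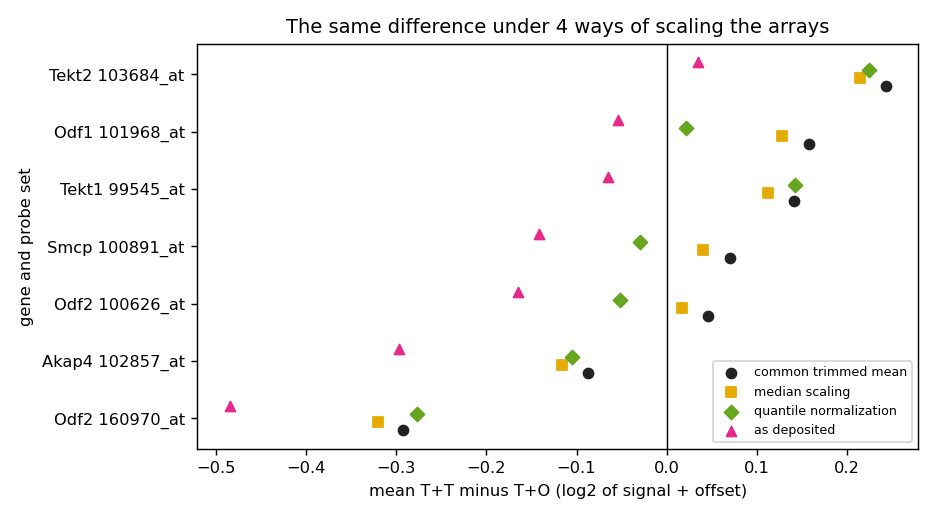
Mean T+T minus T+O of the 7 tested member probe sets on the log2 scale under 4 ways of scaling the arrays, 1 point per scaling. The points of Odf1, Tekt1, Smcp and Odf2 (100626_at) fall on both sides of 0, for Odf1 and Tekt1 only through the unscaled values, and those of Tekt2, Akap4 and Odf2 (160970_at) on one side.

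Ratios within an array do not depend on a scaling factor. With Odf1 set to 100% on each array, Smcp was at 80.8% on T+O and 77.5%, 76.4% and 74.1% on T+T. The brightest Odf2 probe set was at 63.7% on T+O and 59.2%, 61.7% and 56.03% on T+T. Akap4 was at 28.6% on T+O and 22.95%, 25.3% and 24.1% on T+T. For these genes all 3 T+T arrays were below T+O, as was 160970_at, so that 4 of the 6 other tested members had this order, where 30.6% of all tested probe sets did. Tekt1 was at 9.73% against 9.83%, 8.67% and 10.5%, and Tekt2 at 14.3% against 16.1%, 14.7% and 14.9%. All of these ratios share the Odf1 signals, they were computed after the values were known, and a ratio shows unequal change without saying which gene moved.

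Only T+O replicate 1 and T+T replicate 1 have titles and descriptions that match. In this pair, 1 array against 1 with no replicate check, the differences were 0.20 for Odf1, 0.092 for Odf2 (100626_at), 0.14 for Smcp, -0.12 for Akap4, 0.21 for Tekt1 and 0.36 for Tekt2, with -0.40 for 160970_at. Reading T+T replicates 2 and 3 as withdrawn sets T+T replicate 1 against the other 3 arrays. Tekt2 then had a difference of 0.24 (limma, adjusted p = 0.94) and Akap4 one of -0.071 (limma, adjusted p = 0.98), and no member passed. Under both readings of the labels the 7 tested members kept the signs that they had in the grouping by title.

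Other genes of the flagellum were examined as lists. The broadest list held genes of the axoneme, sheaths and flagellar transport beside others such as Tssk1, Tssk2, Oaz3 and Spag5. Of its 30 measured genes 29 passed the filter, 21 lay above T+O and 8 below, where 53.7% of all tested probe sets lay above. None passed in limma in either direction. In 5 of the 29 the unadjusted p was under 0.05, against 7.8% of all tested probe sets. Their median difference was 0.17 on the log2 scale. The highest was Dnah8, an axonemal dynein heavy chain, with 231 on T+O and 451, 916 and 817 on T+T and a difference of 1.55 (limma, adjusted p = 0.26). A second Dnah8 probe set lay at -0.53, so that the gene has no settled direction. Without T+T replicate 1 the first of these probe sets passed in limma, with a difference of 1.86. That fit had 1 residual and 22.8 prior degrees of freedom. It left out the only array labelled with a second course of testosterone propionate. The same probe set passed under no other alternative tested in limma. With T+T replicate 1 set against all other arrays, its difference was -0.31. Next came Spag5, named as a sperm antigen but known as the spindle protein astrin, with 55.5 on T+O and 100.9 ± 25.9 on T+T (SD, n = 3). The lowest were Ift81, of the intraflagellar transport complex, with 195 against 121 ± 10.4 and a difference of -0.65 (limma, adjusted p = 0.46), and Mns1, a filament protein of the flagellum, with 750.1 against 502 ± 136.

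The glycolytic enzymes bound to the fibrous sheath or specific to sperm had 7 measured genes, of which 5 lay above and 2 below T+O, with a median difference of 0.12 and none past the threshold in limma, nor at an unadjusted p under 0.05. The hexokinase gene Hk1 had 563 on T+O and 699 ± 72.5 on T+T, and the retrogene Aldoart2 had 386 against 467 ± 35.4. Pfkp had 157 against 150.4 ± 23.6 and Pgam2 1957 against 1957 ± 336. The second Pfkp probe set lay at 0.21, on the other side of 0 from the first at -0.070. The signalling list, which holds kinase, cyclase and calcium genes of the flagellum, had 10 measured genes and 9 past the filter. Of these 5 lay above T+O and 4 below, with a median of 0.021 and none past the threshold in limma, nor at an unadjusted p under 0.05. The calmodulin gene Calm2 had 48.9 against 71.3 ± 10.5 and the adenylyl cyclase gene Adcy3 53.8 against 63.8 ± 24.7. Prkar1a, a regulatory subunit of protein kinase A, had 361 against 329 ± 38.1, and the calcineurin gene Ppp3cc had 364 against 343 ± 37.2.

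Lists of other spermatid genes and of other cell types were set beside the members. The 6 member genes, each by its brightest probe set, summed to 9979 on T+O and to 10996, 12181 and 9002 on T+T, which is 1.10, 1.22 and 0.902 times T+O. The sum of the 18 other spermatid genes stood at 1.15, 1.23 and 1.005 times T+O, although 9 of these genes lay above T+O and 9 below with a median difference of 0.014, and that of the sheath glycolysis genes at 1.17, 1.18 and 0.911 times. Spermatocyte genes (6 measured) stood at 1.01, 1.09 and 1.02 times, Sertoli cell genes (13) at 1.01, 1.15 and 1.14 times, and Leydig cell genes (9) at 1.02, 0.905 and 1.05 times. After quantile normalization the member sum was 10398 on T+O and 10265, 11447 and 9476 on T+T, or 0.987, 1.10 and 0.911 times T+O. The other spermatid genes were then at 0.966, 1.02 and 0.971 times and the sheath glycolysis genes at 0.950, 0.966 and 0.878 times. A sum is carried by its brightest genes. Among the spermatocyte genes Hspa2, a heat shock protein of meiotic cells, had 1533 on T+O and 1752, 1956 and 1838 on T+T, while Sycp1, of the synaptonemal complex, had 390 on T+O and 13.5, 38.5 and 36.2 on T+T. The log2 difference of Sycp1 was -3.43 (limma, adjusted p = 0.11). Whether Sycp1 passed depended on the setting. It passed without T+T replicate 1 (-3.09), without T+T replicate 2 (-3.61), with median scaling, with no scaling and with the higher offset. It did not pass without T+T replicate 3 (-3.58), after quantile normalization, with no filter, with a higher filter or with no trend. Nor did it pass when T+T replicate 1 was set against all other arrays (-2.05). Without T+T replicate 1 or 2 the fit had 1 residual and 22.8 or 12.4 prior degrees of freedom. Without scaling the prior was infinite. The germ cell gene Dazl had 166 on T+O and 63.5, 79.2 and 103 on T+T (log2 -0.96, limma, adjusted p = 0.41). The Sertoli cell gene Kitl, which encodes stem cell factor, had 49.9 on T+O and 14.4, 12.6 and 17.4 on T+T (log2 -1.29, limma, adjusted p = 0.45). All T+T values of Kitl lay below the filter of 22.7, so that it was tested only through its T+O value. Its side of T+O is therefore no support for a difference. With the higher offset its log2 difference was -0.77, and with the higher filter it was not tested. The T+O array was above every T+T array for Sycp1, Dazl and Kitl, as for 23.7% of all tested probe sets. Each of these genes was at least 1.5-fold lower on every T+T array, where 4.07% of all tested probe sets were 1.5-fold to either side. These genes were singled out after their values were seen. Among genes past the filter, the spermatocyte list had 3 above T+O and 2 below, and the spermatogonia list 4 above and 3 below. Of these, Dmc1 (above) and Msh5 and Zbtb16 (below) lay close to the filter of 22.7. They had 22.3, 23.9 and 27.8 on T+O, so that their sides are unsure. The Sertoli cell list, which holds Kitl, had 10 above and 2 below. The part of germ cell content in the order of the arrays was not tested.

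**Figure D4:**
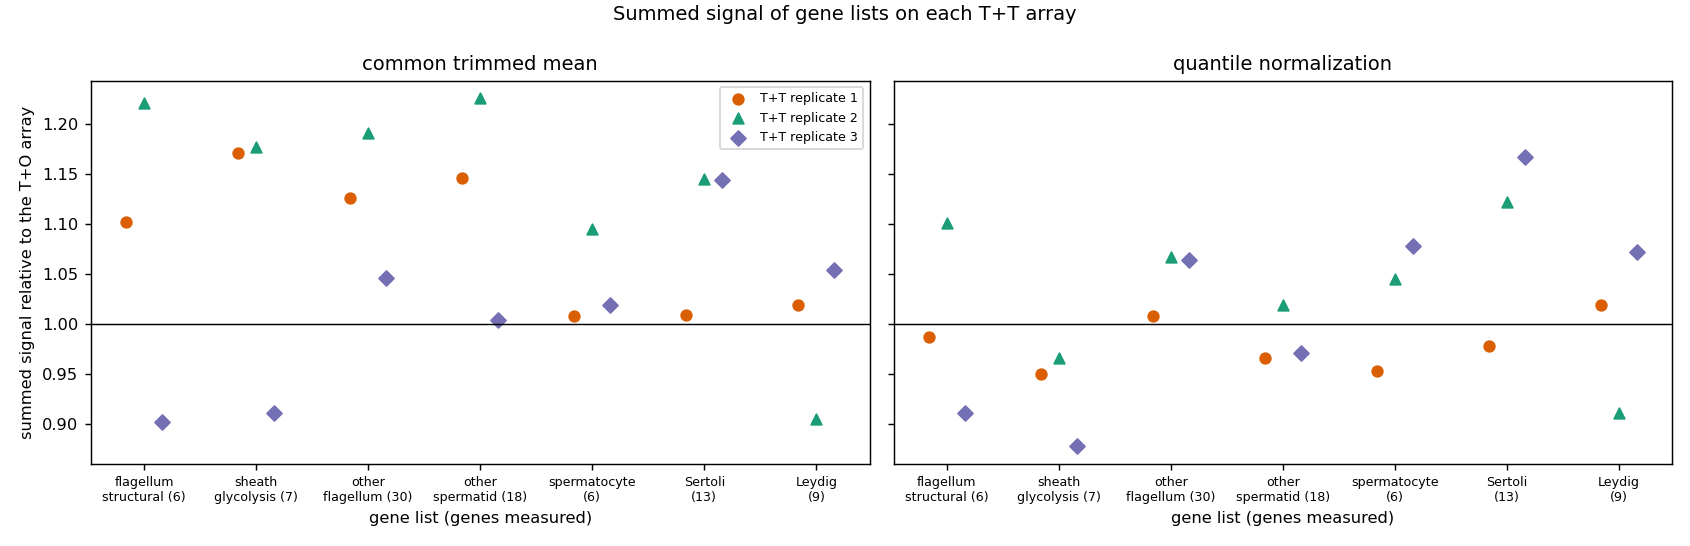
Summed signal of 7 gene lists on each T+T array relative to the T+O array at 1, after scaling to a common trimmed mean (left) and after quantile normalization (right). The flagellum members and the sheath glycolysis genes are lowest on T+T replicate 3 in both panels.

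Among the remaining lists, spermatogonia genes (9 measured) stood at 0.903, 0.942 and 1.03 times T+O, peritubular myoid genes (6) at 1.21, 1.31 and 1.03 times and macrophage genes (10) at 0.985, 1.17 and 1.35 times. In the main grouping and scaling no gene of the cell type lists passed in limma. Of 3 measured genes on the list for multiciliated cells, which use tektins too, 2 passed the filter. Arrays of whole testis do not show which cells gave their signal. Rfx2, which encodes a factor that binds X-boxes, had 618 on T+O and 742, 582 and 596 on T+T. Foxj1, the regulator of motile cilia, had 210 against 238, 209 and 184. Both groups overlapped for these genes, and their differences were 0.040 and -0.0029 (limma, adjusted p = 0.98 and 0.999). The one epididymis gene above the filter, Gpx5, had 39.3 against 38.6 ± 12.9.

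The genes whose pattern over the 4 arrays was most like the mean profile of the 7 tested members were Park7, Psma5, Maged1, Pafah1b3 and Banf1. Likeness was the root mean square difference of log2 profiles centred on their own mean, over 4 arrays and 2616 genes at least as bright as the dimmest tested member. It ranged from 0.013 for Park7 to 0.024 for Banf1, with a median of 0.17 over those genes. The members themselves lay between 0.054 for Smcp and 0.23 for the Odf2 probe set 160970_at from their own mean profile. Park7 had 488 on T+O and 513, 547 and 437 on T+T, the same order of arrays as Smcp.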

How the data were processed

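The authors deposited 1 table of signal intensity on a linear scale, 1 value per probe set and array; the software and the normalization are not given in the sources used here. Groups came from the sample titles, with the T+T array that has no number counted as replicate 3. The 66 control probe sets were left out, arrays were scaled to a common mean after trimming 2% at each end, and an offset of 9.78, the 25th percentile, was added before log2. Probe sets with a mean above the 40th percentile (22.7) were tested, 7453 of 12422, with limma 3.58.1 in R 4.3.3 (lmFit, eBayes with trend, two-sided, Benjamini-Hochberg over all of them, threshold 0.05). The fit had 2 residual and 5.73 prior degrees of freedom and assumes that the lone T+O array varies like the T+T arrays. No detection calls were used, and the number of arrays limits the precision. Symbols came from the platform annotation, 10833 probe sets with 1 symbol, of which 10817 were updated through RefSeq, 396 with several and 1193 unnamed.

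Members and lists were chosen with earlier results of these data known. Named genes were all members, the 2 highest and the 2 lowest of each flagellum list (a gene by its brightest kept probe set), and the 5 nearest profiles. The same rule covered the cell type lists, which are given by counts or sums, except multiciliated cells, epididymis and 4 genes singled out after their values were seen (Sycp1, Hspa2, Dazl and Kitl). The procedure was tested on simulated data over 7453 probe sets in the same design, T+T against T+O. Changes were added on the log2 scale that includes the offset. Of these, 2 of 100 probe sets changed 2-fold and 41 of 100 changed 4-fold were called, with 0 false calls. Noise was drawn independently for each probe set from its SD over T+T, for T+O too. No shift common to an array was simulated, so that the false calls do not cover such shifts. Alternatives were other scalings, offsets, filters, no trend, each T+T array left out, and other readings of the labels.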

Additional observations from a re-analysis of the deposited data

How the results depend on the processing

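No member passed under any of the alternatives tested in limma, and none was at least 1.5-fold to one side under any. The median over all 8 member probe sets, 0.105 on the log2 scale, was -0.103 without scaling, -0.0041 after quantile normalization and between 0.022 and 0.19 when 1 T+T array was left out. Signs turned as follows, as log2 differences. With values as deposited they were -0.054 for Odf1, -0.17 for Odf2 (100626_at), -0.14 for Smcp, -0.065 for Tekt1, -0.021 for Adcy3, -0.17 for Rfx2, -0.18 for Park7, -0.14 for Psma5, -0.13 for Maged1, -0.11 for Pafah1b3 and -0.14 for Banf1. Quantile normalization gave -0.052 for Odf2 (100626_at), -0.030 for Smcp and 0.0085 for Foxj1, and median scaling -0.0031 for Park7. Leaving out each T+T array in turn, the log2 differences ran from -0.077 to 0.19 for Odf2 (100626_at), -0.024 to 0.20 for Smcp and -0.21 to 0.022 for Akap4. For genes that are no members they ran from -0.18 to 0.027 for Pfkp, -0.11 to 0.13 for Pgam2, -0.099 to 0.34 for Adcy3, -0.14 to 0.00095 for Ppp3cc, -0.069 to 0.10 for Rfx2, -0.093 to 0.085 for Foxj1, -0.26 to 0.10 for Gpx5, -0.043 to 0.12 for Park7 and -0.0037 to 0.14 for Psma5. Under the reading of T+T replicates 2 and 3 as withdrawn arrays, Odf2 (161262_r_at) was at -0.36, Dnah8 at -0.31, Spag5 at -0.27, Aldoart2 at -0.030, Pgam2 at 0.26, Calm2 at -0.038, Hspa2 at -0.012 and Foxj1 at 0.24. Sycp1 lay between -4.10 and -2.05 under all alternatives, the latter under that reading (limma, adjusted p = 0.92). In the pair of arrays with matching labels Pgam2 was at 0.18 and Foxj1 at 0.18. The causes were not tested. No paired analysis was possible because T+O has 1 array, whose label carries no number.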
